A study of Mus musculus with 8 samples.

Results

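Methylation at CpG dinucleotides was followed in 116 windows of the mouse genome that read lower in both surgical injury models of the kidney than in both sham operations. A window was 1000 bp of mm9, on chromosomes 1 to 19, with at least 3 CpG positions that had 10 or more reads in all 8 libraries and at least 100 summed reads per library. Of 65728 such windows, 116 (0.176%) had the highest of 4 injured libraries 5 or more percentage points below the lower of 2 shams. The level of a window is the share of its summed reads that were methylated, so the windows were selected on the levels of these 6 libraries, which are given below as a description with no test. The opposite rule, all injured libraries 5 or more points above both shams, was met by 125 windows (0.19%).

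The libraries were made by reduced representation bisulfite sequencing (RRBS), which reads short MspI fragments, from the renal cortex and outer medulla of male wild type C57BL/6J mice. Unilateral ureteral obstruction (UUO) with 5AZA, an agent the labels name only by this abbreviation and which was injected in saline at 1 mg per kg per day, had 2 libraries, taken 7 days after surgery. UUO for 7 days without 5AZA had 2 libraries, whose deposited tables are named saline, while the labels state no injection for them. Bilateral ischemia of 25 minutes had 1 library after 1 week and 1 library after 1 month of reperfusion. The UUO sham and the ischemia sham, operated without ligation or clamping, had 1 library each, and the labels give no ages and leave unsaid whether 2 libraries of a group are 2 animals. Both UUO groups shared the same sham, and the injury models differed in surgery, time and sham. Reads summed over CpG positions came to 57853745 to 86411736 per library, where a read over several CpGs counts at each of them. The median depth was 33 to 48 reads per CpG.

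In mammals, most CpGs outside CpG islands are methylated, and DNMT1 copies the mark to the new strand at each cell division while TET enzymes start its removal. CpG-rich promoters are mostly free of methylation, and levels between both extremes often mark regulatory DNA that differs between cell types. Obstructed and reperfused kidneys lose tubular epithelium and gain fibroblasts and leukocytes, and in DNA from whole tissue a changed mix of cells and a change within cells cannot be told apart.

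The 3 windows in which a RefSeq gene start could be located are shown first, because for them the measured CpGs can be read against a promoter. Each line is the 250 bases before the start (RefSeq, GRCm38.p6), 5′ to 3′ on the gene's strand, and capitals mark the CpGs that entered the window's level. P2rx1 (an ATP-gated cation channel) lies at chr11:72998895-72999144 on the plus strand, 4930503B20Rik at chr3:146685486-146685735 on the minus strand and Gm29683 at chr7:70337823-70338072 on the minus strand, all in GRCm38.p6.
P2rx1: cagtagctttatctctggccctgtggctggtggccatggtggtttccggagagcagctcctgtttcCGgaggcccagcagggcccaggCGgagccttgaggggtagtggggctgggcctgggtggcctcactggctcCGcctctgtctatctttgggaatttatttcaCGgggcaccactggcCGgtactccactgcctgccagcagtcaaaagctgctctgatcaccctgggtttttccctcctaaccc
4930503B20Rik: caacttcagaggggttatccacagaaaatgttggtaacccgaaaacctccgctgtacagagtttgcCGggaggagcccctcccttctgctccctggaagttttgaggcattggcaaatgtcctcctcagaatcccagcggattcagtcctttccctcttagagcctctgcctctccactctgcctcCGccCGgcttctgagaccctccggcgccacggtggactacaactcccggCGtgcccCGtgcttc
Gm29683: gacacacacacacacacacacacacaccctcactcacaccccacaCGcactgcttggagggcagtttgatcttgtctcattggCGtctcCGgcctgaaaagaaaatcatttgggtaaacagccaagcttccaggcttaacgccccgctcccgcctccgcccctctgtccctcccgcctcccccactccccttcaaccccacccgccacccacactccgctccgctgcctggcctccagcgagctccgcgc

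The P2rx1 promoter window (chr11:72812001-72813000, mm9) had levels of 60.7 and 60.9% in UUO with 5AZA, 48.9 and 57.8% in UUO, 58.9% at 1 week and 58.9% at 1 month of reperfusion, against 64.1 and 66.3% in the UUO and ischemia sham. The capitals hold all 5 of its CpGs, and at 2 of them every injured library was below both shams. The CpG 162 bases before the start averaged 59.96% in UUO with 5AZA, 47.6% in injured libraries and 63.4% in shams. The CpG 113 bases before the start averaged 63.6% in UUO with 5AZA, 62.0% in injured libraries and 78.5% in shams. The CpG 82 bases before the start was low in all libraries, at 19.3% in injured libraries and 20.7% in shams. So within 1 short promoter the difference sat at neighbouring CpGs and was not shared by all of them.

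The Gm29683 window (chr7:77482001-77483000, mm9) had levels of 42.8 and 40.6% in UUO with 5AZA, 39.0 and 44.2% in UUO, 37.6% at 1 week and 41.6% at 1 month, against 52.3 and 50.3% in the shams. Every injured library was below both shams at 7 of its 11 CpGs, and 3 of the 11 lie before the start and are capitals in the sequence. The widest difference among them stood 185 bases after the start, at 41.2% in injured libraries and 64.6% in shams.

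The 4930503B20Rik window (chr3:146348001-146349000, mm9) is of another kind. Its level averaged 17.6% in injured libraries and 28.3% in shams, but only 2 of its 11 CpGs had all injured libraries below both shams. The CpG 184 bases before the start went the other way, with 87.6% in injured libraries and 76.1% in shams, and 9 CpGs averaged under 10% in both groups. With each CpG given equal weight the window stood at 15.6% in injured libraries and 15.8% in shams. Only in 1 of the 116 windows did equal weights end the separation of all injured libraries from both shams. In the other 115 all injured libraries stayed below both shams with equal weights, and 91 stayed 5 or more points below. The P2rx1 window was not among the 91, with its highest injured library 4.46 points below the lower sham.

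Across the 116 windows the injured minus sham difference had a median of -10.90 points and ranged from -27.93 to -5.59 points, while its median over all 65728 windows was 0.07 points. Mean levels were 70.3 and 68.4% in UUO with 5AZA, 67.6 and 68.3% in UUO, 66.3% at 1 week, 66.8% at 1 month, 79.1% in the UUO sham and 79.0% in the ischemia sham. Over all windows the same libraries averaged 59.3 and 59.0%, 61.8 and 62.0%, 59.5%, 60.05%, 61.1% and 60.01%, in the same order. By the mean the chosen windows thus sat above all windows in every library. By the median they sat below in the 4 injured libraries, at 69.1 and 70.5% in members against 76.1 and 76.1% in all windows in UUO, 68.97 against 70.9% at 1 week and 68.7 against 72.3% at 1 month. In UUO with 5AZA the medians were 72.5% in members against 70.9% in all windows in the first library. In the second they were 69.95 against 70.06%, so it was also just below. With equal weight per CpG the members averaged 67.3% in injured libraries and 78.7% in shams.

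The gap, which is the lower sham minus the highest injured library, had a median of 6.36 points. It reached 10 points in 10 windows, lay under 7.5 points in 86, and lay between 5 and 6 points in 41. The windows just inside the 5-point limit were chr11:50841001 (5.01 points), chr1:163665001 (5.03) and chr12:77196001 (5.06), and those just outside were chr10:98713001 (4.9998), chr5:122408001 (4.995) and chr7:119830001 (4.96). Windows on both sides of the limit thus had like values. Leaving out any 1 of the 6 libraries, which can only keep or raise the number because the rule sets a highest against a lowest level, gave 178 to 998 windows, the most without the ischemia sham and 416 without the UUO sham.

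**Figure D1:**
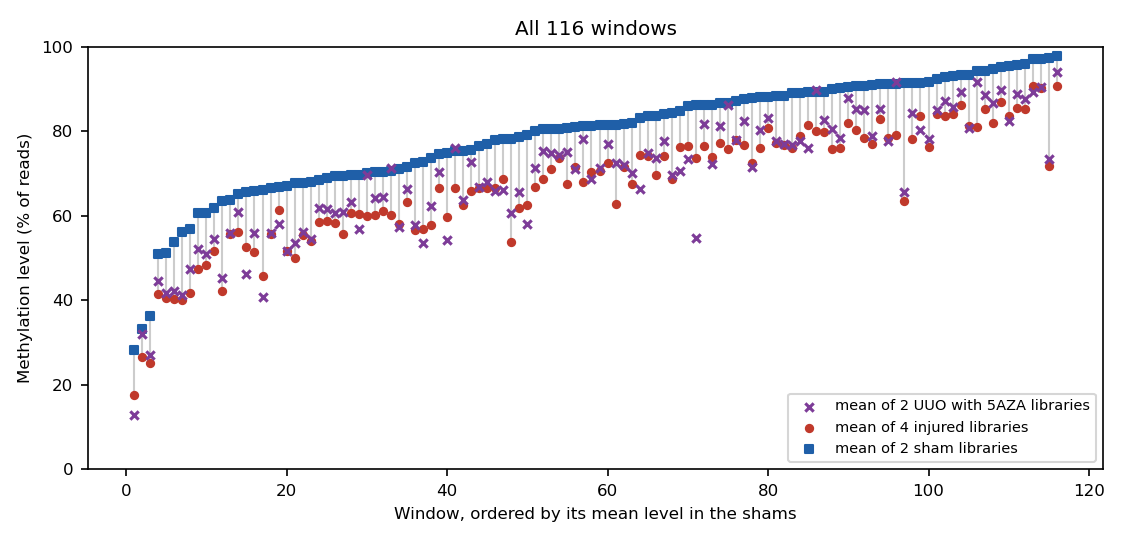
Methylation level (% of reads, y axis) of the 116 windows, ordered along the x axis by the mean of 2 shams. Crosses are means of the 2 UUO with 5AZA libraries, circles means of 4 injured libraries and squares means of 2 shams, joined by grey lines; most shams lie above 50% and most crosses lie near the circles.

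The windows were mostly methylated at 50% or more in the shams. There 59 of the 116 (50.9%) stood at 70 to 90%, against 21.3% of all windows, 26 (22.4%) at 50 to 70%, against 9.39%, and 28 (24.1%) at 90 to 100%, against 30.2%. Only 3 members were below 50% in the shams, where 20098 and 5562 of all windows lay at 0 to 30% and 30 to 50%. A window with a sham under 5% cannot meet the rule, so these shares in part describe the choice.

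Members were poor in CpGs. They held a median of 5 CpG positions, against 6 in all windows, 107 of 116 (92.2%) held 3 to 7, against 59.6%, and none held 20 or more, against 17.2%. They were also shallow, with a median of 256 reads per window and library, against 376 in all windows, and with 154.5 reads against 235 in their shallowest library. The median half-width of the 95% exact (Clopper-Pearson) interval of a level was 5.15 points in members and 3.18 points in all windows. These intervals take each count as independent and leave out any spread between animals. PCR copies are not told apart and 1 read can count at several CpGs, so they can be too narrow even for counting error. The interval of the highest injured library lay wholly below that of the lower sham in 15 of the 116 windows, which were also all windows of the 65728 (0.0228%) with that property. Fewer members are found where reads are many: with at least 400 reads per library 7 of 21122 windows (0.033%) met the rule. The part that counting error has in the other members was not tested.

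**Figure D2:**
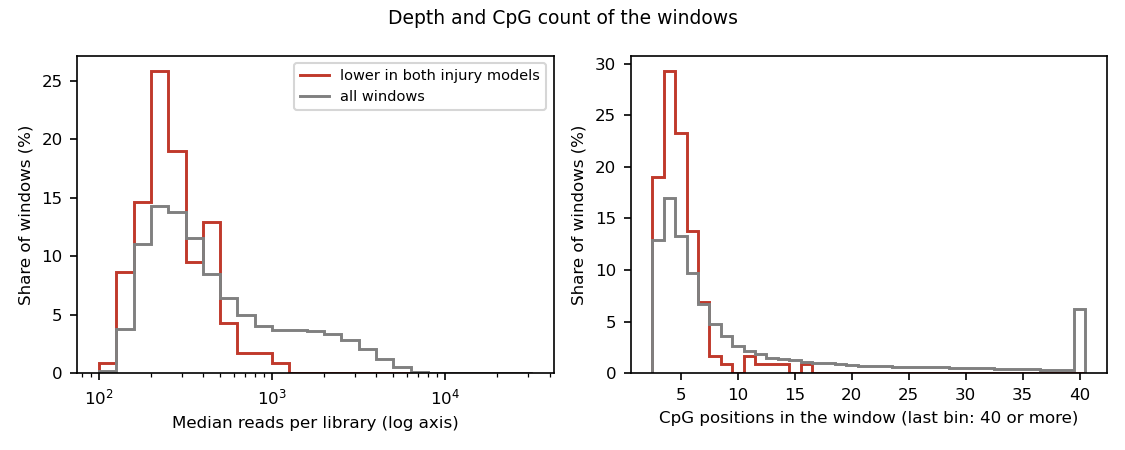
Share of windows (%, y axes) by the median number of reads per library (left, log axis) and by the number of CpG positions (right, last bin 40 or more), for the windows lower in both injury models (red) and all windows (grey). Members have a median of 256 reads, against 376 in all windows, and none of them has 20 or more CpGs.

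The widest gap lay at chr15:79891001-79892000. Its level was 71.2 and 60% in UUO with 5AZA, 64.2 and 63.8% in UUO, 59.95% at 1 week and 65.9% at 1 month, against 91.2 and 91.5% in the shams. All injured libraries were thus close to each other, and no interval of an injured library reached one of a sham. The nearest gene start that could be located was that of Syngr1 (a synaptic vesicle protein), 29764 bp away, and the RefSeq order places Pdgfb (a growth factor chain that drives mesenchymal cells) and Rpl3 between Cbx7 and Syngr1, which flank the window. The difference sat at 2 neighbouring CpGs, 845 and 847 bp from the window start, which stood at 47.1 to 51.3% and 48.9 to 59.8% in injured libraries and at 88.2 to 91.1% and 89.3 to 94.1% in shams. The outer 2 of its 4 CpGs overlapped between the groups.

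The second lay at chr7:16792001-16793000, within the annotated length of Dhx34 (an RNA helicase of nonsense-mediated decay). Its level was 63.8 and 57.7% in UUO with 5AZA, 53.1 and 57.9% in UUO, 53.2% at 1 week and 51.3% at 1 month, against 77.5 and 79.0% in the shams. At the last 2 of its 5 CpGs, all injured libraries stood at 11.7 to 31.7%, against 47.1 to 63.2% in the shams, while the first 2 CpGs were at 89.5% or more in all 8 libraries. The ischemia sham held only 19 and 20 reads at those last CpGs. With equal weight per CpG the window stood at 59.6% in injured libraries and 74.3% in shams. Its gap was then 10.06 points, against 19.61 points by summed reads.

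At chr14:32482001-32483000, between the starts of Eaf1 and Ankrd28, the level was 40.7 and 40.8% in UUO with 5AZA, 47.2 and 48.9% in UUO, 38.2% at 1 week and 48.8% at 1 month, against 64.3 and 67.9% in the shams. RefSeq lists Colq, Hacl1 and Btd (biotinidase) between these genes. The CpG 537 bp from the window start stood at 15.0 and 9.38% in UUO with 5AZA and at 9.62 to 23.9% in injured libraries, against 55.0 and 53.7% in the UUO and ischemia sham. A run of 3 CpGs, at 523, 537 and 600 bp, behaved alike, while the CpG 510 bp from the start stayed at 72.5 to 83.1% in all 8 libraries. Neighbouring CpGs on the same short stretch thus differed in whether they separated the groups.

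At chr17:27684001-27685000, 8519 bp before the start of Hmga1 (an architectural chromatin protein), the level was 46.5 and 44.0% in UUO with 5AZA, 43.8 and 46.5% in UUO, 36.1% at 1 week and 42.1% at 1 month, against 58.8 and 68.3% in the shams. Its 3 middle CpGs carried the difference, with 9.46 to 27.5% in injured libraries and 30.3 to 60.6% in shams. Both outer CpGs were at 62.9% or more in all 8 libraries.

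**Figure D3:**
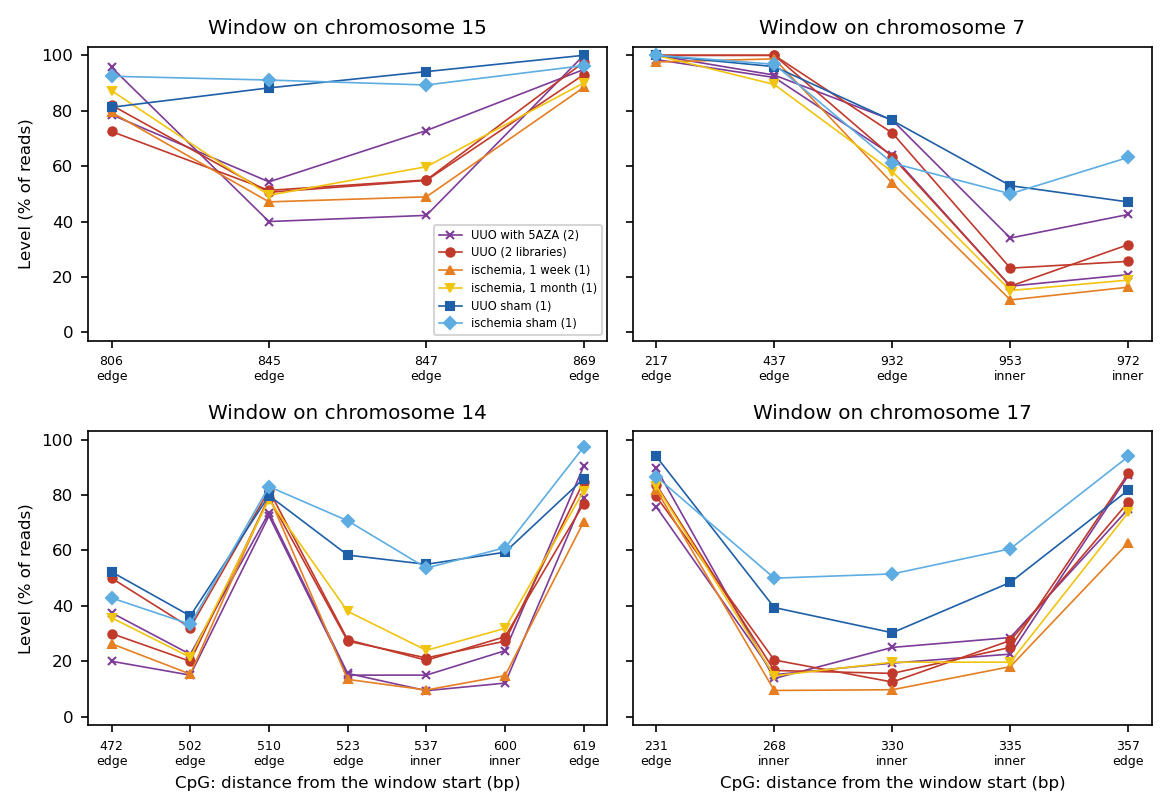
Level of each CpG (% of reads, y axes) against its distance from the window start (bp, x axes) in the 4 windows with the widest gaps, on chromosomes 15, 7, 14 and 17. Crosses are UUO with 5AZA, circles UUO, triangles ischemia and squares and diamonds the shams; in each window some CpGs separate the injured libraries from the shams and others do not.

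The other 6 windows with gaps of 10 points or more lay on chromosomes 17, 11, 8, 4, 8 and 2. At chr17:47282001-47283000, between the starts of Gm41589 and Mrps10 with Trerf1 among the genes between, the level averaged 75.8% in injured libraries and 89.98% in shams. At chr11:54028001-54029000, in the interval from P4ha2 (a collagen prolyl hydroxylase) that also holds the cytokine genes Csf2 and Il3, it averaged 57.8% in injured libraries and 73.8% in shams. At chr8:91549001-91550000, in an interval that holds Nkd1, Nod2, Cyld (a deubiquitinase that restrains NF-kB) and Sall1 (a transcription factor of kidney development), it averaged 62.9% in injured libraries and 81.6% in shams. These intervals hold many genes, and no gene was assigned to the windows.

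At chr4:59381001-59382000, between the starts of Ugcg (glucosylceramide synthase) and Hsdl2, the level averaged 76.1% in injured libraries and 90.2% in shams. At chr8:129063001-129064000, within the annotated length of Slc35f3, it averaged 50.04% in injured libraries and 67.7% in shams. At chr2:32350001-32351000, between the starts of Slc25a25 (a mitochondrial ATP carrier) and Fam102a, it averaged 66.9% in injured libraries and 80.1% in shams. The gap of this last window was 10.01 points by summed reads and 3.16 points with equal weight per CpG. Among these 10 leading windows the intervals of the highest injured library and the lower sham were apart in 5.

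**Figure D4:**
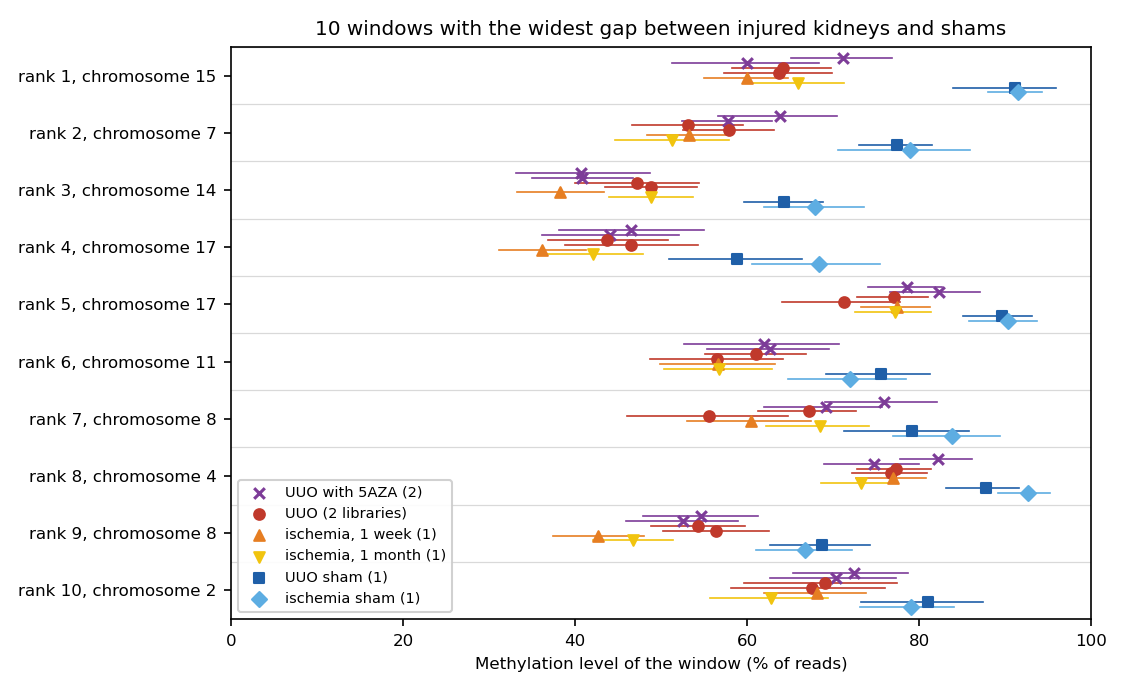
Methylation level (% of reads, x axis) of the 10 windows with the widest gap, one per row from the widest at the top, with each library as a point and its 95% exact interval as a line. In each row the crosses for UUO with 5AZA, like the red, orange and yellow points of the injured libraries, lie left of both blue sham points. The rows were chosen for the gap between injured libraries and shams, which favours high shams.

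The 6 windows with the most reads or CpGs had smaller gaps, between 5.06 and 6.19 points. The deepest, chr16:36709001-36710000 with 16 CpGs, had 86.5 and 85.0% in UUO with 5AZA, 82.4 and 83.8% in UUO, 83.7% at 1 week and 86.3% at 1 month, against 94.3 and 92.2% in the shams. The Cdk4 window (chr10:126501001-126502000) holds 14 CpGs and starts 410 bp after the start of this kinase gene, which drives entry into S phase. It had 41.1 and 48.1% in UUO with 5AZA, 42.6 and 45.1% in UUO, 41.1% at 1 week and 36.8% at 1 month, against 51.3 and 50.8% in the shams. With equal weight per CpG it averaged 38.7% in injured libraries and 42.8% in shams, with a gap of only 1.185 points. Within Syne2 (a nuclear envelope protein) the window chr12:77196001-77197000 had 13 CpGs, and all 4 injured libraries lay at 61.0 to 61.6%, against 66.6 and 67.1% in the shams. The windows at chr13:24593001, chr7:77482001 (Gm29683, above) and chr14:55765001 averaged 74.1, 40.6 and 83.0% in injured libraries and 83.5, 51.3 and 91.1% in shams. None of these 6 windows was among the 10 widest.

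Among 591 CpG positions of the members, 359 (60.7%) had all 4 injured libraries below both shams, against 4.52% of the 790303 CpGs of all windows, a share that the rule itself raises. All CpGs did so in 8 windows and at least 1 CpG did in all 116. In RRBS the cut ends of a fragment are filled in with nucleotides during library making, here with methylated dCTP, so CpGs at fragment edges can read as methylated. Edges, located from steps in read depth, made up 405 of the 591 CpGs (68.5%), against 55.2% in all windows. Edge CpGs averaged 73.0% in injured libraries and 82.4% in shams. The 186 inner CpGs averaged 51.3% in injured libraries and 66.1% in shams, a difference of -14.85 points against -9.38 points at the edges. In these chosen windows the difference was thus larger at inner CpGs than at edges, where levels were also higher in both groups. What part the fill-in has in these levels was not tested.

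In 19 members at least 3 inner CpGs remained. Their inner level averaged 50.8% in UUO with 5AZA, 49.0% in injured libraries and 63.0% in shams, and all 4 injured libraries stayed below both shams in all 19 and 5 or more points below in 16. The widest inner gap, 13.5 points, was in a window within Septin9 (a cytoskeletal GTPase; chr11:117103001-117104000), with 63.5 and 48.1% in UUO with 5AZA, 59.3 and 62.5% in UUO, 63.1% at 1 week and 58.5% at 1 month, against 81.9 and 76.6% in the shams. The inner gap was 12.1 points within Cdk6 (a kinase of the same step as Cdk4; chr5:3382001-3383000) and 11.1 points in Coro1a (an actin regulator of leukocytes; chr7:133846001-133847000). These windows were singled out after their values were seen.

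CpGs of the same windows that the rule had not used, because a library had under 10 reads there, gave a further look. There were 28 of them with at least 5 reads in the 6 libraries, in 14 windows, and they averaged 82.5% in injured libraries and 86.8% in shams, a difference of -4.33 points, against 0.38 points over such CpGs in all windows. All injured libraries were below both shams at 4 of the 28 (14.3%), against 3.16% in all windows. The left-out CpGs of all windows averaged only 34.6% in injured libraries and 34.3% in shams, so both comparisons are at unlike levels. The 28 CpGs are few. These CpGs share reads with the CpGs that chose the windows, so they are not an independent sample. The windows directly beside a member differed little: 33 could be measured, with a median injured minus sham difference of -0.82 points against 0.07 points over all windows, and 23 of 33 (69.7%) were lower in injured libraries, against 47.9%. No member lay beside another, so each was a single window.

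The members were spread over all 19 chromosomes. Their share of the windows was 0.063% on chromosome 6 (2 of 3158 windows) and 0.246% on chromosome 8 (10 of 4060), the lowest and highest, and chromosome 11 had the most, 12 windows.

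Relative to genes, most members lay away from the gene starts that could be located. RefSeq promoter sequences were placed on mm9 by matching the spacing of their CpGs to the CpG positions in the deposited tables, which located the starts of 9004 genes. Among the 113 members on chromosomes with located starts, 3 (2.65%) held one, against 12.3% of all such windows, and 62 (54.9%) were over 50 kb from one, against 44.5%. The median distance was 54460 bp in members and 37513 bp in all windows. Among windows with 3 to 16 CpGs and a sham level of 30% or more it was 54667 bp in members and 60071 bp in all, so the greater distance was not seen among windows of like CpG number and level. Genes with CpG-poor promoters could not be placed, so a distance is an upper limit. Beside the 3 windows that hold a start, 3 lay within 1 kb of one, next to Cdk4, Coro1a and Gm16059, and 7 at 1 to 5 kb, next to Abhd11, Psma7, Rnf144b (a ubiquitin ligase), Timp3, Marchf9 (a ubiquitin ligase), Sbno2 and Podxl2. The Rnf144b window (chr13:47285001-47286000) lies within the gene, 3372 bp before one located start and 67412 bases after another, and had 89.0 and 94.3% in UUO with 5AZA, 80.3 and 85.1% in UUO, 76.8% at 1 week and 74.9% at 1 month, against 91.3 and 91.3% in the shams. That before Sbno2 (chr10:79570001-79571000) had 58.8 and 53.4% in UUO with 5AZA, 57.3 and 59.6% in UUO, 53.5% at 1 week and 51.6% at 1 month, against 67.9 and 67.7% in the shams. With 5AZA the first was near its shams and the second among its injured libraries.

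Among the 27 members within the annotated length of a gene with a located start (23.9%, against 33.9% of all windows), a few are given here as examples picked after their values were seen. Rps6ka1 (a kinase downstream of ERK; chr4:133428001-133429000) averaged 80.0% in injured libraries and 89.4% in shams, and Spen (a transcriptional repressor; chr4:141033001-141034000) averaged 73.6% in injured libraries and 86.2% in shams. Coro1a averaged 72.6% in injured libraries and 81.5% in shams, and Psma7 (a proteasome subunit; chr2:179775001-179776000) averaged 58.8% in injured libraries and 68.9% in shams. Upstream of Timp3 (an inhibitor of matrix metalloproteinases; chr10:85758001-85759000), 4157 bp before its start, the level averaged 61.2% in injured libraries and 70.4% in shams. Expression was not measured in these libraries, so whether these genes changed in use is not known from them.

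The models were much alike in these windows, as the rule requires. The UUO level minus the UUO sham had a median of -10.50 points, and the ischemia level minus its own sham one of -11.18 points. The level was 10 or more points below the model's own sham in 63 members with UUO, in 73 with ischemia and in 42 with both, against 574, 391 and 55 of all windows. UUO minus ischemia had a median of 1.46 points in members and 1.66 in all windows, and it was below 0 in 40 members (34.5%), against 20.4%. The widest difference between models was at chr15:79255001-79256000, within Csnk1e (casein kinase 1 epsilon), with 74.8 and 72.0% in UUO with 5AZA, 82.8 and 87.0% in UUO, 49.2% at 1 week and 68.0% at 1 month, against 99.04 and 95.7% in the shams. There the 1 week ischemia library was far below the others.

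In the median the 1 week and 1 month libraries differed little. The rule had kept only windows in which both of them lay below both shams. The 1 month minus 1 week difference had a median of 0.14 points in members and 0.31 points in all windows, below 0 in 55 of 116 members. It was over 10 points in 5 members and ranged from -15.48 to 18.78 points, the highest being the Csnk1e window. For comparison, the 2 UUO libraries differed by over 10 points in 3 members. With 1 library per time there is no replicate check of a change with time.

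Beyond the read minimum, the 5AZA libraries had no part in the choice of windows, and they give a reading of the same DNA stretches from other kidneys with UUO. Both 5AZA libraries were below both shams in 104 of 116 members (89.7%), against 33.3% of all windows. At a mean level of 50 to 90% over the 6 libraries without 5AZA the shares were 93 of 104 members (89.4%) and 35.2% of all windows. Because the rule picked windows in which both shams read high, part of this count follows from the choice, and its size was not tested. A comparison that gives all 6 libraries equal weight is less tied to the shams. The rule used all 6, however, so this comparison also depends on the choice and on there being 4 injured libraries and 2 shams. Mean 5AZA levels were 1.83 points below the 6-library mean in members at 50 to 90%, against 2.75 points below in all windows there. By level, the 5AZA difference from the 6-library mean was -1.91 points in members and -2.06 in all windows at 50 to 70%, and -1.78 points in members and -3.04 in all windows at 70 to 90%.

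**Figure D5:**
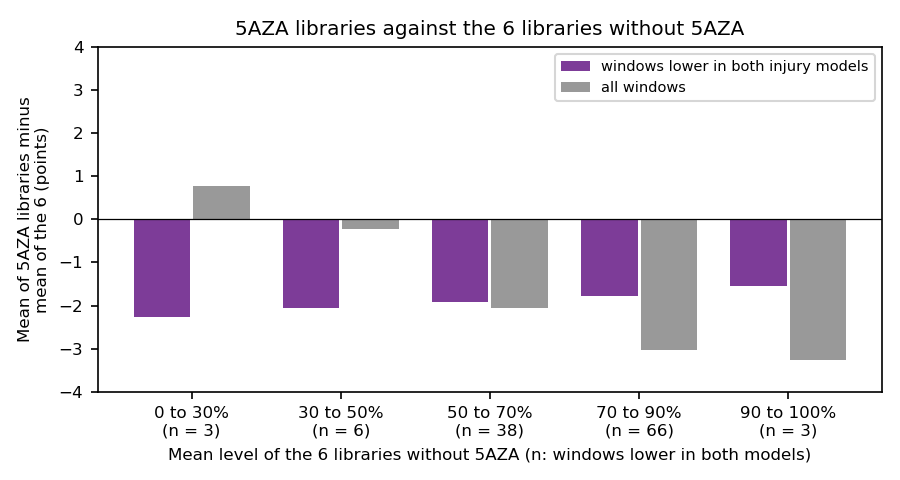
Mean of the 5AZA libraries minus the mean of the 6 libraries without 5AZA (percentage points, y axis) by the mean level of those 6 libraries (x axis), for the windows lower in both injury models (purple) and all windows (grey). At 70 to 90%, where 66 members lie, the members were at -1.78 points and all windows at -3.04 points; the outer classes hold 3 to 6 members.

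Against UUO alone, 5AZA levels were mostly higher in the members and mostly lower over all windows. The 5AZA minus UUO difference had a median of 1.86 points in members and -2.29 points over all windows, and 77 members (66.4%) were higher with 5AZA, against 22.8% of all windows. Both UUO libraries had chosen the windows for reading low, which moves this difference upward. The 5AZA mean lay within the range of the injured libraries in 55 members, below all of them in 12, between them and the shams in 44 and at or above the lower sham in 5. Over all 65728 windows, where these classes can overlap, the counts were 34212, 24218, 379 and 35120. The rule gives every member a gap between injured libraries and shams, so the member counts are shaped by the choice.

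The test of 5AZA against UUO was a quasi-binomial model with dispersion moderated by limma, fitted over all windows, with calls at an adjusted p below 0.05 and 10 or more points. It called 40 of 65728 windows (0.0609%), all lower with 5AZA, and 0 of the 116 members. At an unadjusted p below 0.05 it found 14 members (12.1%), against 25.2% of all windows, and edgeR called 26 windows and 0 members, with 14 members at an unadjusted p below 0.05. The rule had used both UUO libraries, so p-values and shares of members are shaped by the choice and are given as a description. In simulated data the model recovered 0% of planted falls of 10 points, 33.0% of 20 points and 91.0% of 30 points. There 200 of 65728 windows were changed, while 25.2% of the real windows had an unadjusted p below 0.05. Members also had fewer reads than all windows, with medians of 256 and 376 per window and library. The shares recovered thus do not tell how many member differences could be called, which was not tested. With 2 libraries a group, a lack of calls does not show equal levels. Differences given here are between plain means of library levels, while SE and p come from reads pooled within each group. A difference divided by its SE thus does not give its p.

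Members nearest to a call went in both directions, and they were chosen after their values were seen. In Spen the level was 60.1 and 49.2% in UUO with 5AZA, against 77.3 and 77.9% in UUO, a difference of -22.94 points (SE 3.97, adjusted p = 0.0572 in the limma-moderated model). In Rps6ka1 it was 90.8 and 88.8% in UUO with 5AZA, against 79.4 and 77.4% in UUO, a difference of 11.43 points (SE 1.75, adjusted p = 0.0572 in the same limma-moderated model). With 5AZA the Rps6ka1 window was thus near its sham levels of 89.7 and 89.1%, while the Spen window was below all other libraries. In both windows the libraries of the groups did not overlap, and neither passed the threshold. The choice of windows with low UUO levels moves such differences upward, so these values are no independent test.

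Among the 10 leading windows both 5AZA libraries were below both shams in all 10, against 33.3% of all windows, with no call for 5AZA minus UUO. The ranking by gap favours high shams, so part of this count follows from the choice. The differences from UUO ran from -7.26 points at chr14:32482001 (SE 3.30, adjusted p = 0.199, limma-moderated model) to 11.21 points at chr8:91549001 (SE 4.58, adjusted p = 0.267, same limma-moderated model). At the widest gap, chr15:79891001, 5AZA minus UUO was 1.64 points (SE 4.09, adjusted p = 0.669, limma-moderated model). Among the 6 deep windows the differences ran from -3.19 points in Syne2 (SE 1.70, adjusted p = 0.274, limma-moderated model) to 3.91 points at chr13:24593001 (SE 2.49, adjusted p = 0.257, limma-moderated model).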

How the data were processed

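RRBS was read in 8 libraries of 6 groups, taken from the sample titles and treatments. Genomic DNA was digested by MspI, its ends were filled in with methylated dCTP, and fragments were size-selected, converted and amplified, per the labels' protocols. Bowtie and mm9 are named in the submitters' processing notes, and which caller, filters and versions were used is not given in the sources used here. Each deposited table gives, per CpG, the authors' counts of reads and of methylated reads, not normalized, and a fraction rounded by the authors to 3 decimals that was not needed for the levels.

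Counts were joined by position and summed per window (Python 3.11.15, numpy 2.4.6, pandas 2.3.3). The members, the naming rule and the tests were chosen with earlier results of these data known. Named windows are the 10 widest gaps, the 5 with the most reads, the 5 with the most CpGs, windows called for 5AZA (none) and 3 on each side of the limit. Single libraries are given with 95% exact binomial intervals from scipy 1.17.1.

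UUO with 5AZA was tested against UUO with a quasi-binomial model of 1 mean per group over all 8 libraries. Its dispersion came from both pairs (2 residual degrees of freedom, 6.95 prior degrees of freedom, prior dispersion 1.38, floor 1), was moderated with limma 3.58.1 in R 4.3.3 and was tested by a two-sided F test with Benjamini-Hochberg adjustment over 65728 windows. The printed difference is between plain means of library levels, while the SE and the F test use reads pooled within each group. edgeR 4.0.16 was an alternative. The model was tested on simulated reads with 200 windows changed. P-values measure the spread between these libraries, which may be technical.

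A CpG was an edge when depth changed by more than 10% to a neighbour within 250 bp with at least 40 reads, or when it had no such neighbour. RefSeq promoters (250 bases before and 50 after a start, GRCm38.p6) were placed on mm9 by the spacing of their CpGs, with no conversion of coordinates. Of 31396 sequences, 19582 had at least 5 CpGs and 10227 were placed, 0 of the same sequences read backwards were placed, and 99.63% of placed starts kept their GRCm38.p6 spacing to a neighbour. The score minimum of 8 was set after values were seen. Chromosome 18 had no promoter sequences in the table used, and the labelled tissue could not be checked from methylation counts.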

Additional observations from a re-analysis of the deposited data

How the results depend on the processing

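The number of windows meeting the rule was 36 with fragment-edge CpGs left out (25416 windows, 16 shared with the 116), 60 with 5 or more CpGs, 209 with no minimum of summed reads, 7 with 400 summed reads, 10 with a gap of 10 points and 3870 with a gap of 0 points. It stayed within 1.5 times of 116 with 20 reads per CpG, an upper limit on depth, plain means of CpG levels (113, of which 91 were shared), windows shifted by 500 bp and windows of 500 bp. The set was less stable than the number: 95 of the 116 were shared with 20 reads per CpG. Of the 116, 82 overlapped a window meeting the rule when shifted by 500 bp, and 104 held a 500 bp window meeting it. Leaving out 1 library, which cannot lower the number, gave 178 to 998 and kept all 116.

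For 5AZA minus UUO the 40 called windows became 71 with 20 reads per CpG, 17 with an upper limit on depth, 319 without fragment-edge CpGs, 26 with edgeR, 74 with no minimum difference and 8 to 1363 with 1 library left out, the most without the first 5AZA library. Of the members 0 were called in each of these, save 2 without the first 5AZA library (range 0 to 2), in Spen (chr4:141033001) and at chr17:3350001. With the replicate number as a block, 1952 windows and 3 members were called, the Spen window at chr4:141033001 and chr15:79255001 lower and chr4:133428001 higher. The labels give no source for the numbers, and the deviations of same-numbered libraries correlated at 0.127 over windows with 2 pairs, so they were not taken as pairs.

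Without fragment-edge CpGs the median 5AZA minus UUO difference was 3.37 points and both 5AZA libraries were below both shams in 17, both over 19 members; with 1 library left out the ranges were 1.14 to 2.69 points and 104 to 111 members. For 16 named windows none of 160 values was called; 88 were identical to the difference reported, most because the setting leaves the group means as they are, and of the other 72 values 62 kept the direction and 10 turned. With 1 library left out, the direction turned at chr15:79891001 (-3.95 to 7.24 points), chr17:27684001 (-1.219 to 1.502), chr4:59381001 (-2.23 to 5.22), chr13:24593001 (-0.17 to 7.98), chr7:77482001 (-2.46 to 2.72) and chr10:126501001 (-2.73 to 4.26), and at the last also without edge CpGs (-0.96). The cause was not tested. With each count taken as independent, the median 95% interval of a member level was 5.15 points either way, near the gap of most members. It can be too narrow, because 1 read can count at several CpGs.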

Other observations

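On chromosome X, which the rule leaves out, 2 of 839 windows (0.238%) had all 4 injured libraries 5 or more points below both shams.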
